A study of Homo sapiens with 19 samples.

Results

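MCRS1 is a subunit of INO80-C, a chromatin remodeling complex that moves and edits nucleosomes, and of the NSL complex, which carries the histone H4 acetyltransferase KAT8. INO80-C is known for roles in transcription, DNA replication and DNA repair, and NSL for acetylation at the promoters of widely used genes. HepG2, the liver cancer cell line used here, still makes the plasma proteins and many metabolic enzymes of a hepatocyte, so its RNA reports on the growth programme and on the liver programme at the same time. The comparison described here is that of siMCRS1 with the non-targeting siRNA (NTG) in DMSO, and its members are the 5 libraries whose labels name those treatments, out of 19 in the series: 2 NTG libraries (1 and 3) and 3 siMCRS1 libraries (1, 2 and 3). All 5 came from HepG2 cells kept from 3 days before transfection in DMSO, which the label gives at 1 µM, then transfected with 50 nM siRNA by RNAiMAX and harvested after 72 h. A further 5 libraries had the EZH2 inhibitor EPZ-6438 at 1 µM in place of DMSO, 3 with NTG and 2 with siMCRS1, and entered the filter on low values and the variance estimate of the test. They serve below as a repeat of the same knockdown in separate libraries. Each siRNA was a single sequence, so effects of that sequence on other targets cannot be told apart from loss of MCRS1. The labels do not say that the replicates were separate cultures, so the p-values measure only the spread between these libraries, which may be technical. Values are normalized counts (reads divided by 1 size factor per library) and are given in the order NTG 1, NTG 3, then siMCRS1 1, 2 and 3. In bulk RNA, fewer cells that express a gene and less RNA per cell cannot be told apart.

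The upstream sequences of 4 genes are shown first as examples: VGF and EGR1, which rose, and TOP2A and MCM2, which belong to the mitosis and S phase lists. Each run is the 250 bases before the RefSeq start on GRCh38.p14, written 5′ to 3′ on the strand of the gene, and capitals mark matches, on either strand, to 4 of the motifs counted near the end, the CRE (TGACGTCA), the CHR (TTTGAA), the CCAAT box (CCAAT) and the E-box (CACGTG). The stretches lie at chr7:101165570-101165819 (VGF, minus strand), chr5:138465229-138465478 (EGR1, plus strand), chr17:40417897-40418146 (TOP2A, minus strand) and chr3:127598161-127598410 (MCM2, plus strand).
VGF: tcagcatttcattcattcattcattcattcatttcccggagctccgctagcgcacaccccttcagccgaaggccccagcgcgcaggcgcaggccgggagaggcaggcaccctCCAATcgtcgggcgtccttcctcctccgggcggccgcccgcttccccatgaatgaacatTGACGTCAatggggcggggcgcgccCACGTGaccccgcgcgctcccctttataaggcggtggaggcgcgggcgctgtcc
EGR1: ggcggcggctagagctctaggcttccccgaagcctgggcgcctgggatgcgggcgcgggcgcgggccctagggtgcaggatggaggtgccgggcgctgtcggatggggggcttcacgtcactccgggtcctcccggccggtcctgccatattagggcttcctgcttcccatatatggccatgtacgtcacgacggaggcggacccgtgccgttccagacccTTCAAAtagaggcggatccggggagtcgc
TOP2A: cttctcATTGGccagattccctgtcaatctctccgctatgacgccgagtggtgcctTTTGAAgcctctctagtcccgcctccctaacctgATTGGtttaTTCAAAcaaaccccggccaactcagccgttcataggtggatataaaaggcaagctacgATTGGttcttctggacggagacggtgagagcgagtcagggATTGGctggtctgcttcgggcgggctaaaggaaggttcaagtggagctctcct
MCM2: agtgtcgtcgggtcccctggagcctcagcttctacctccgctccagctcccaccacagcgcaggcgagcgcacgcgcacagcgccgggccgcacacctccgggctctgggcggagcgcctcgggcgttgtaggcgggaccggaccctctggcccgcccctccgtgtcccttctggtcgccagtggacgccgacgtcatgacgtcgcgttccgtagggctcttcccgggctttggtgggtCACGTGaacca
VGF held a CCAAT box, a CRE and an E-box, which began 138, 79 and 54 bases before the start. This start lies inside the VGF gene interval given below, not at its outer end. EGR1 held 1 CHR at 29 bases before the start, MCM2 an E-box at 11 bases, and TOP2A 4 CCAAT boxes and 2 CHRs. How common these letters were among all promoters is given with the motif counts near the end.

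The knockdown was followed by differences in a large share of the transcriptome. The 5 libraries held 26038505 to 36478361 reads each. The limma test covered the 14312 genes whose normalized counts averaged 10 or more across the 10 DMSO and EPZ-6438 libraries. Of these, 47.7% were called at an adjusted p under 0.05, 23.1% higher (3307 genes) and 24.6% lower (3523 genes) with siMCRS1. The groups did not overlap in 66.8% of tested genes. All 3 siMCRS1 libraries were above both NTG libraries in 4759 genes and below both in 4796. Genes named for a large rise or fall were picked among called genes without overlap between the groups, so their separation adds no evidence. Falls were larger than rises, with a median log2 difference of -0.91 over the genes called lower and 0.68 over those called higher, and a fall of at least 2 log2 units in 340 genes against a rise of that size in 129. Without NTG 1, 2297 genes were called lower and 2307 higher. The balance of rises and falls depended on scaling. The authors' size factors hold the middle gene still, but the summed normalized counts rose by 17.7%, from a mean of 32792742 in NTG to 38611267 in siMCRS1, with FN1 alone giving 5.65% of the rise. Setting all libraries to equal totals shifted the median of all genes by -0.24 on the log2 scale and gave 1892 genes higher and 5107 lower, so that rises made up 27.0% of calls in place of 48.4%. All differences below are on the authors' scale, where the median over all genes was 0.002, and a list whose direction turns under equal totals is marked. That scaling lowers siMCRS1 values of all genes together, with 13.2% of genes called higher and 35.6% lower, so counts under it are read against these shares. It moved the median of a list relative to that of all genes by at most 0.085. Quantile normalization moved some of these relative medians further. They went from 0.325 to -0.004 for cytosolic ribosomal proteins, 0.30 to -0.007 for NRF2 targets and 0.55 to 0.195 for IGF and oncofetal genes. Cytosolic chaperones went from 0.33 to 0.04, unfolded protein response genes from 0.24 to 0.03 and nucleolar genes from 0.21 to -0.005. Splicing factor genes went from 0.18 to -0.14 and ATF4 and integrated stress response genes from 0.32 to 0.10. Cytoskeleton genes went from 0.57 to 0.28 and cholesterol synthesis genes from -0.115 to -0.43. The relative median of immediate early genes went from 1.17 to 1.25 and that of S phase genes from -0.54 to -0.64.

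The target itself was low in every siMCRS1 library. MCRS1 (12:49558299-49568142, GRCh38.p14) had 1577 and 1283 in NTG and 140.2, 83.7 and 119 in siMCRS1, a log2 difference of -3.66 (standard error 0.23, adjusted p = 5.9e-06 in limma), and the groups were far apart. Its partners moved unevenly. KAT8, the acetyltransferase of the NSL complex, had 1394 and 1033 in NTG and 575, 435 and 477 in siMCRS1, a log2 difference of -1.28 (standard error 0.18, adjusted p = 0.00029), with every siMCRS1 library below both NTG libraries. In INO80-C, INO80B had 316 and 312 in NTG and 204, 155 and 181 in siMCRS1 (log2 difference -0.81), whereas INO80C had 679 and 743 in NTG and 1240, 1310 and 1186 in siMCRS1 (log2 difference 0.81), so that a pair of subunits of one complex went opposite ways. NFRKB, a metazoan-specific subunit, was at 819 and 848 in NTG and 1233, 1324 and 1332 in siMCRS1 (log2 difference 0.64). YY1, the DNA-binding subunit, was higher by 0.40 log2 units, a call that was not made under equal totals (log2 0.17) or quantile normalization (0.19). The ATPase INO80 was lower by a log2 difference of -0.27, a call lost without NTG 1 (-0.20), NTG 3 (-0.34), siMCRS1 1 (-0.26) or siMCRS1 2 (-0.22), and, at the same -0.27, without the filter on low values, with an untrended variance or with the 5 DMSO libraries alone. RUVBL1, an AAA+ helicase of the complex, did not pass the test (log2 difference -0.39, adjusted p = 0.058). Of the 14 other INO80-C subunits tested, 4 were higher and 3 lower (the latter 1 without NTG 1 or siMCRS1 2), and under equal totals the balance turned to 2 higher and 6 lower. Of 8 other NSL subunits, 2 were higher (0 without NTG 1, NTG 3, siMCRS1 1 or siMCRS1 2) and 1 lower, with 0 higher and 3 lower under equal totals. The shares over all genes were 23.1% and 24.6%.

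The largest rises included genes best known from neurons, smooth muscle and the extracellular matrix. CD44 (11:35139171-35232402), the hyaluronan receptor, had 1.92 and 2.86 in NTG and 79.0, 118 and 112 in siMCRS1, a log2 difference of 4.93 (standard error 0.41, adjusted p = 2.0e-05). Only 2 and 3 reads stood behind the NTG values against 71, 107 and 78 with siMCRS1, a ratio of 42.8 with a 95% exact counting interval of 18.1 to 133 that covers counting error only. LBH, a transcriptional cofactor of development, had 16.3 and 12.4 in NTG and 238, 279 and 405 in siMCRS1 (log2 difference 4.30). VGF (7:101162509-101169952), the precursor of secreted neuropeptides whose upstream sequence is given above, had 45.0 and 76.4 in NTG and 710, 1063 and 1160 in siMCRS1, a log2 difference of 4.01 (standard error 0.36, adjusted p = 2.5e-05). In all 3 genes the lowest siMCRS1 library was many times above the highest NTG library. CHRNA9, a nicotinic acetylcholine receptor subunit, had 7.66 and 11.5 in NTG and 118, 90.3 and 138 in siMCRS1 (log2 difference 3.46). MMP2, a secreted gelatinase that cleaves matrix, had 44.04 and 80.2 in NTG and 316, 879 and 562 in siMCRS1 (log2 difference 3.16), and siMCRS1 1 was the lowest of its group. CNN1, the calponin of smooth muscle, had 8.62 and 12.4 in NTG and 127, 89.2 and 87.4 in siMCRS1 (log2 difference 3.15). RASD1, a small GTPase induced by glucocorticoid, had 355 and 407 in NTG and 2838, 3286 and 2540 in siMCRS1 (log2 difference 2.91). TUBB2B, a neuronal beta tubulin, had 235 and 299.7 in NTG and 2324, 2124 and 2106 in siMCRS1 (log2 difference 3.04), although its near-identical neighbour TUBB2A could share reads with it. INA, a neuronal intermediate filament, was at 0 reads in NTG 1 and 15 in NTG 3 against 99, 78 and 61 with siMCRS1, a ratio of 13.3 (7.88 to 24.1), and its call (log2 difference 4.60, adjusted p = 0.023) was lost without NTG 1 (log2 2.63) or siMCRS1 2 (4.66). It was also not made in edgeR (log2 3.69, adjusted p = 0.056), in DESeq2 (3.72, adjusted p = 0.308) or with a pseudocount of 0.1 in limma (6.29, adjusted p = 0.055).

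The largest falls included genes of liver metabolism. UNC93A (6:167269032-167316014), a membrane protein of the UNC93 family, had 1228 and 797 in NTG and 116, 50.7 and 41.5 in siMCRS1, a log2 difference of -3.96 (standard error 0.37, adjusted p = 3.3e-05). PCK1 (20:57561110-57568121), which commits carbon to gluconeogenesis, had 372 and 203 in NTG and 32.3, 11.01 and 17.2 in siMCRS1, a log2 difference of -3.83 (standard error 0.45, adjusted p = 9.8e-05). In both, siMCRS1 1 was the highest of its group and still well below NTG. LDHD, the D-lactate dehydrogenase, had 242 and 196 in NTG and 28.9, 18.7 and 15.8 in siMCRS1 (log2 difference -3.35). GPD1, which links glycolysis to glycerolipid synthesis, had 1336 and 1123 in NTG and 208, 90.3 and 100.3 in siMCRS1 (log2 difference -3.30). FBF1, a protein of the distal appendages of centrioles, had 429 and 409 in NTG and 36.7, 25.3 and 32.9 in siMCRS1 (log2 difference -3.70), with little spread within either group. PALM3, a paralemmin, had 530.4 and 436 in NTG and 53.4, 36.4 and 34.4 in siMCRS1 (log2 difference -3.54).

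**Figure D1:**
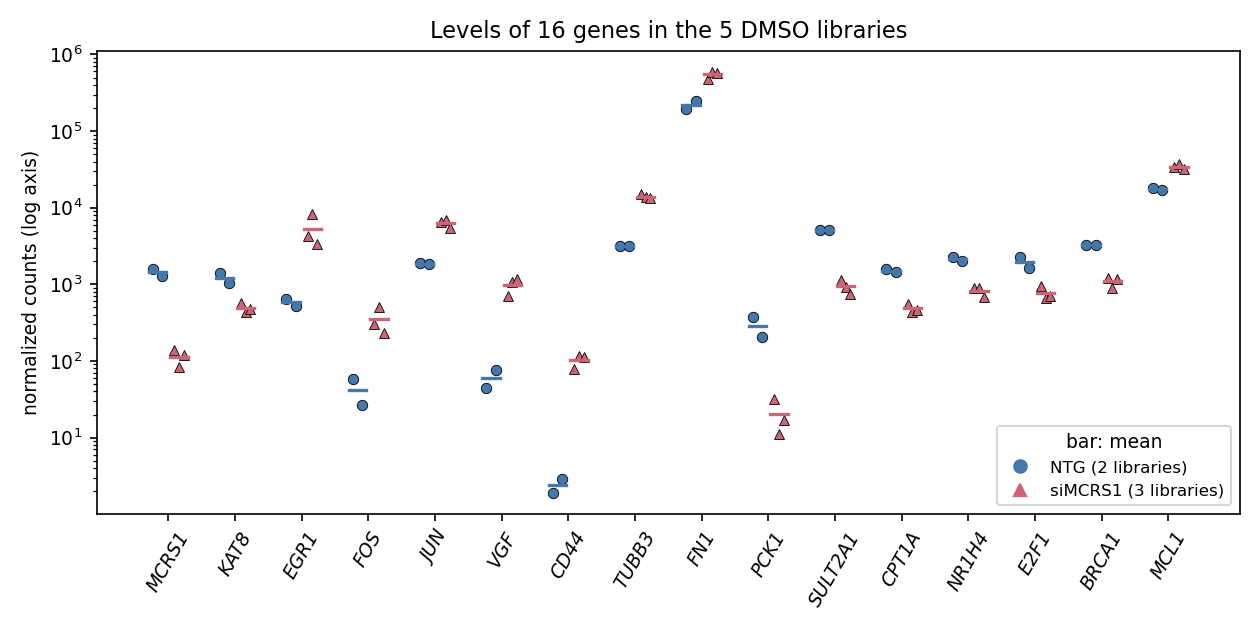
Normalized counts of 16 genes in the 5 DMSO libraries, on a log axis; circles are the 2 NTG libraries, triangles the 3 siMCRS1 libraries and bars the group means. In each of the 16 genes the groups do not overlap, from CD44 near 2 normalized counts in NTG to FN1 at 193887 and above. For genes named as large rises or falls, this was a condition of being named.

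Immediate early genes, which growth factor and stress signals switch on within minutes through AP-1, EGR and related factors, rose in most members. Of the 25 members tested, 21 were higher and 0 lower, against 23.1% and 24.6% of all genes, with a median log2 difference of 1.17, and 18 to 20 stayed higher with any 1 library left out. EGR1 (5:138465479-138469303), a zinc finger transcription factor, had 651 and 525 in NTG and 4258, 8360 and 3376 in siMCRS1, a log2 difference of 3.08 (standard error 0.38, adjusted p = 0.00014). FOS, an AP-1 subunit, had 57.4 and 26.7 in NTG and 302, 513 and 234 in siMCRS1, a log2 difference of 3.04 (standard error 0.43, adjusted p = 0.00026). In both genes siMCRS1 2 stood above the other siMCRS1 libraries, and the lowest siMCRS1 library was several times the highest NTG library. JUN, the partner of FOS, was tighter, at 1907 and 1824 in NTG and 6570, 6984 and 5509 in siMCRS1, a log2 difference of 1.76 (standard error 0.12, adjusted p = 8.3e-06). ATF3, a stress-induced repressor, had 177 and 166 in NTG and 578, 824 and 678 in siMCRS1 (log2 difference 1.99). EGR3 had 20.1 and 19.1 in NTG and 54.5, 108 and 74.5 in siMCRS1 (log2 difference 1.90). The genes of the list together took 0.093% and 0.0956% of reads in NTG and 0.194%, 0.228% and 0.192% in siMCRS1, without overlap.

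Feedback genes of ERK, the last kinase of the RAS pathway, and genes of EGF receptor ligands moved the same way. Of 20 members, 15 were higher and 2 lower (1 without NTG 1, NTG 3, siMCRS1 1 or siMCRS1 3), with a median of 0.94. Many of them encode inhibitors of the pathway. DUSP6, the phosphatase of cytoplasmic ERK, had 2949 and 2820 in NTG and 5286, 6281 and 5104 in siMCRS1 (log2 difference 0.94). DUSP5, that of nuclear ERK, had 1129 and 1756 in NTG and 4181, 7051 and 6437 in siMCRS1 (log2 difference 2.03). DUSP1, a phosphatase with a wider choice of MAP kinases, had 593 and 615 in NTG and 2040, 2613 and 1684 in siMCRS1 (log2 difference 1.78). SPRY4, a Sprouty inhibitor of receptor signaling, had 2664 and 2610 in NTG and 7395, 10640 and 7712 in siMCRS1 (log2 difference 1.68). All 4 inhibitors were separated between the groups. Among the EGF receptor ligands, HBEGF had 157 and 140.3 in NTG and 548, 766 and 587 in siMCRS1 (log2 difference 2.07). TGFA went the other way with 1101 and 1386 in NTG and 623, 816 and 842 in siMCRS1 (log2 difference -0.71). Of the 10 neuroendocrine granule genes tested, the class of VGF, 3 were higher and 2 lower (the latter 1 without NTG 1, NTG 3 or siMCRS1 2 and 4 without siMCRS1 3), and under equal totals 2 were higher and 3 lower. REST, the repressor that keeps neuronal genes off, had 2226 and 2813 in NTG and 3819, 4843 and 4883 in siMCRS1 (log2 difference 0.84), and the neuronal enolase ENO2 had 1293 and 1312 in NTG and 847, 669 and 785 in siMCRS1 (log2 difference -0.77).

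Most members of the cytoskeleton list were also higher on the authors' scale. In the actin and microtubule list, 24 of 36 members were higher and 2 lower (1 without any 1 library), with a median of 0.57. Under quantile normalization 16 were higher and 3 lower. The list took 1.6% and 1.5% of reads in NTG and 1.99%, 1.98% and 1.83% in siMCRS1. TUBB3, a beta tubulin typical of neurons, had 3123 and 3149 in NTG and 14975, 13758 and 13222 in siMCRS1, a log2 difference of 2.15 (standard error 0.15, adjusted p = 1.1e-05). TUBA1A, an alpha tubulin with close paralogs, had 2140 and 1822 in NTG and 9685, 8104 and 7683 in siMCRS1 (log2 difference 2.10). Both were raised in every siMCRS1 library. TAGLN, an actin-binding protein of smooth muscle, had 839.7 and 830.3 in NTG and 2265, 2031 and 1949 in siMCRS1 (log2 difference 1.31), yet ACTA2, the smooth muscle actin, was lower with 1156 and 621 in NTG and 341, 199 and 182 in siMCRS1 (log2 difference -1.87). ACTB, the main cytoplasmic actin, did not pass the test (110895 and 91011 in NTG and 107873, 120959 and 91749 in siMCRS1, adjusted p = 0.73) and its groups overlapped.

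In the list of epithelial and mesenchymal markers, 14 of 21 were higher and 3 lower (median 0.73). The rises took in mesenchymal genes and also 5 epithelial ones (CLDN1, CLDN4, KRT8, KRT19 and TJP1), and the falls were CDH1, ESRP2 and EPCAM, all epithelial. FN1, fibronectin, had 193887 and 248649 in NTG and 474698, 594593 and 580163 in siMCRS1, a log2 difference of 1.32 (standard error 0.24, adjusted p = 0.0012). TGFB1, a cytokine that drives matrix production, had 642 and 769 in NTG and 3211, 3799 and 3400 in siMCRS1, a log2 difference of 2.30 (standard error 0.20, adjusted p = 2.3e-05). SNAI1, a repressor of the cadherin gene, had 119.7 and 100.2 in NTG and 348, 529.8 and 295 in siMCRS1 (log2 difference 1.78). FN1, TGFB1 and SNAI1 were above NTG in all 3 siMCRS1 libraries. The mesenchymal markers VIM and TWIST1 were too low to test, with at most 7.36 and 1.915 normalized counts in any library. The epithelial CLDN3 and ESRP1 were not tested either. CDH1, the epithelial cadherin itself, had 623 and 927 in NTG and 230.4, 382 and 246 in siMCRS1 (log2 difference -1.44), a call lost without NTG 3 (log2 -1.16), siMCRS1 1 (-1.31) or siMCRS1 3 (-1.35) and under quantile normalization (-1.22). ESRP2, an epithelial splicing regulator, had 1276 and 1130 in NTG and 588, 393 and 576 in siMCRS1 (log2 difference -1.23). All genes given here with log2 differences had counts in the NTG libraries too.

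Collagens, laminins and integrins had 12 of 35 members higher (7 without NTG 1) and 3 lower. ITGA2, a collagen receptor, had 14565 and 22129 in NTG and 39653, 53460 and 56418 in siMCRS1 (log2 difference 1.46). ITGA3, a laminin receptor, had 429.9 and 529 in NTG and 173, 93.6 and 118 in siMCRS1 (log2 difference -1.94), so the integrins parted. Targets of YAP and TEAD, the transcription factors at the end of the Hippo pathway, had 13 of 23 members higher and 2 lower (the latter 1 without NTG 1), with a median of 0.75. CTGF, a matricellular protein, had 5024 and 4474 in NTG and 10775, 16678 and 11109 in siMCRS1 (log2 difference 1.41). LATS2, the kinase that restrains YAP, had 1183 and 1401 in NTG and 2499, 3493 and 2932 in siMCRS1 (log2 difference 1.19). Both were above NTG in all siMCRS1 libraries, whereas AJUBA, a LIM scaffold, was lower at 7496 and 7398 in NTG and 5486, 5517 and 5739 in siMCRS1 (log2 difference -0.42).

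Many regulators and enzymes of the liver programme fell, while its best known plasma proteins did not pass the test. Among hepatocyte transcription factors, 14 of 26 were lower (7 without NTG 1) and 5 higher (3 without siMCRS1 2 and 2 under equal totals), with a median of -0.46. NR1H4, the bile acid receptor FXR, had 2246 and 2038 in NTG and 909, 892 and 688 in siMCRS1, a log2 difference of -1.38 (standard error 0.15, adjusted p = 7.1e-05). NR0B2, its target and the repressor SHP, had 2139 and 1584 in NTG and 821, 529.8 and 479.8 in siMCRS1 (log2 difference -1.63). CREB3L3, a fasting-induced factor bound to the endoplasmic reticulum, had 695 and 489.6 in NTG and 163, 105 and 105 in siMCRS1 (log2 difference -2.26). These 3 were below NTG in every siMCRS1 library and stayed called with any library left out. HNF4A, the factor that maintains hepatocyte identity, had 8900 and 7134 in NTG and 6378, 5398 and 4645 in siMCRS1 (log2 difference -0.55), a call lost without NTG 1 (log2 -0.39) or siMCRS1 3 (-0.44), and CEBPA had 3337 and 2953 in NTG and 2473, 1658 and 1990 in siMCRS1 (log2 difference -0.64), lost without NTG 1 (-0.55). GATA6, an endoderm factor, was higher with 239 and 254 in NTG and 469, 577 and 491 in siMCRS1 (log2 difference 1.05).

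Hepatocyte secreted proteins split by gene, and their share lower, 25.7%, was near the 24.6% of all genes. Of 35 members, 4 were higher (2 without NTG 3 and 2 under equal totals), 9 lower and 22 not called, and the list took 3.76% and 3.43% of reads in NTG and 3.69%, 3.51% and 3.1% in siMCRS1, with overlapping groups. The best known products of HepG2 did not pass the test, and their groups overlapped. ALB, albumin, had 230631 and 172869 in NTG and 280466, 268140 and 198199 in siMCRS1 (adjusted p = 0.22). AFP, alpha-fetoprotein, had 229431 and 144918 in NTG and 314435, 191156 and 179295 in siMCRS1 (adjusted p = 0.46). APOB, the structural protein of LDL, had 424049 and 476550 in NTG and 428429, 550888 and 496754 in siMCRS1 (adjusted p = 0.66). The members that fell included 3 that act on plasma triglyceride, while most apolipoproteins were not called and 1 was higher. APOA5, which lowers plasma triglyceride, had 519.9 and 406 in NTG and 132, 108 and 58.7 in siMCRS1 (log2 difference -2.27). APOC3, which raises it, had 1080 and 1058 in NTG and 327, 370.1 and 150.4 in siMCRS1 (log2 difference -2.02). ANGPTL8, an insulin-induced inhibitor of lipoprotein lipase, had 307 and 262 in NTG and 81.2, 43.0 and 22.9 in siMCRS1 (log2 difference -2.69). In each of the 3 genes siMCRS1 3 was the lowest library. SERPINA6, the carrier of corticosteroids, had 5631 and 4171 in NTG and 1914, 1306 and 957 in siMCRS1 (log2 difference -1.86).

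Coagulation genes had 10 of 28 members lower (3 without NTG 1) and 5 higher (3 without NTG 1), and the members at the start of the cascade moved apart. F7, factor VII, had 312 and 232 in NTG and 57.9, 41.9 and 47.3 in siMCRS1 (log2 difference -2.45). F3, its cell-surface receptor tissue factor, had 536 and 432 in NTG and 1387, 1476 and 1142 in siMCRS1 (log2 difference 1.46). PROC, the anticoagulant protein C, had 2203 and 1695 in NTG and 976, 718 and 692 in siMCRS1 (log2 difference -1.30). In the complement and acute phase list, 8 of 26 were lower (5 without NTG 1) and 5 higher (3 without NTG 1). These shares, 30.8% and 19.2%, were near the 24.6% and 23.1% of all genes. MBL2, the lectin that starts complement, had 1062 and 926 in NTG and 429, 361 and 291 in siMCRS1 (log2 difference -1.48). SERPINA3, an acute phase inhibitor, had 1912 and 2208 in NTG and 4054, 5873 and 4069 in siMCRS1 (log2 difference 1.16) and IL6R, the interleukin 6 receptor, 2499 and 2783 in NTG and 5889, 7797 and 6420 in siMCRS1 (log2 difference 1.34).

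Drug and bile acid handling genes had more members lower than higher. Conjugation genes had 16 of 31 lower and 3 higher (the latter 0 without NTG 3 or siMCRS1 1), with a median of -0.61. SULT2A1, which sulfates steroids and bile acids, had 5081 and 5080 in NTG and 1152, 922 and 745 in siMCRS1, a log2 difference of -2.46 (standard error 0.19, adjusted p = 1.5e-05). GSTA2, a glutathione transferase with near-identical paralogs, had 485 and 423 in NTG and 100.2, 71.6 and 41.5 in siMCRS1 (log2 difference -2.74). Bile acid and transporter genes had 14 of 23 lower and 2 higher (the latter 1 without NTG 1, NTG 3 or siMCRS1 2), and the list took 0.15% and 0.16% of reads in NTG and 0.105%, 0.101% and 0.102% in siMCRS1, without overlap. SLC22A7, an organic anion transporter, had 192 and 199.5 in NTG and 27.8, 30.8 and 8.59 in siMCRS1 (log2 difference -3.25). In contrast, ABCC4, an export pump, was higher with 844 and 1057 in NTG and 1643, 1802 and 1904 in siMCRS1 (log2 difference 0.91). Of 22 cytochrome P450 genes, 9 were lower (5 without NTG 1 or siMCRS1 3) and 1 was higher. CYP8B1, the sterol 12-alpha-hydroxylase of bile acid synthesis, had 141 and 113 in NTG and 54.5, 24.2 and 22.9 in siMCRS1 (log2 difference -1.98). The exception was CYP24A1, the enzyme that breaks down vitamin D, with 1378 and 2210 in NTG and 6152, 9249 and 8332 in siMCRS1 (log2 difference 2.16).

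Fuel metabolism shifted in the same libraries. Among gluconeogenesis and glycogen genes, 10 of 15 were lower and 2 higher (1 without NTG 3), with a median of -0.82, and PCK1, described above, belongs to them. SLC37A4, the glucose-6-phosphate carrier, had 1441 and 1057 in NTG and 341, 174 and 218 in siMCRS1 (log2 difference -2.39). GCKR, the regulator of glucokinase, had 338 and 406 in NTG and 53.4, 61.7 and 88.8 in siMCRS1 (log2 difference -2.46). IGFBP1, which insulin represses, was higher with 5677 and 3197 in NTG and 13055, 15949 and 8697 in siMCRS1 (log2 difference 1.52). In contrast, 15 of 35 glycolysis and hypoxia response genes were higher and 4 lower. HK2, the hexokinase of growing and tumor cells, had 3781 and 3432 in NTG and 7455, 7256 and 7529 in siMCRS1 (log2 difference 1.04). NDRG1, a hypoxia and stress gene, had 2454 and 2491 in NTG and 7920, 8741 and 7362 in siMCRS1, a log2 difference of 1.69 (standard error 0.10, adjusted p = 5.9e-06). The glucose transporter SLC2A1 was lower with 25633 and 25728 in NTG and 16794, 18536 and 16502 in siMCRS1 (log2 difference -0.57), as was PFKL, the liver phosphofructokinase, with 3702 and 2728 in NTG and 1855, 1195 and 1119 in siMCRS1 (log2 difference -1.23), so the list did not move as one.

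Fatty acid oxidation and PPARA target genes had 19 of 27 members lower (11 without NTG 1 or siMCRS1 3 and 12 without siMCRS1 2) and 3 higher (1 without NTG 3 or siMCRS1 2), and took 0.277% and 0.251% of reads in NTG and 0.219%, 0.202% and 0.181% in siMCRS1. CPT1A, the gate for fatty acids into mitochondria, had 1593 and 1433 in NTG and 559, 438 and 468 in siMCRS1, a log2 difference of -1.64 (standard error 0.14, adjusted p = 2.4e-05). EHHADH, a peroxisomal oxidation enzyme, had 3181 and 3047 in NTG and 1241, 952 and 837 in siMCRS1 (log2 difference -1.64). Both were below NTG in every library, while ACSL1, which activates fatty acids, was higher with 1646 and 1953 in NTG and 3761, 5945 and 4678 in siMCRS1 (log2 difference 1.39).

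Lipid synthesis genes had few rises: 9 of 18 lipogenesis genes were lower and 0 higher, and the list took 0.369% and 0.361% of reads in NTG and 0.264%, 0.246% and 0.242% in siMCRS1, without overlap. MLXIPL, the glucose-sensing factor ChREBP, had 1500 and 1819 in NTG and 362, 204 and 318 in siMCRS1 (log2 difference -2.53). DGAT1, which makes triglyceride, had 2652 and 2349 in NTG and 711, 485 and 471 in siMCRS1 (log2 difference -2.19). FASN and SCD, the main enzymes of fatty acid synthesis and desaturation, had log2 differences of -0.34 and -0.29 and did not pass the test (adjusted p = 0.21 and 0.14), although their groups did not overlap. Cholesterol synthesis and uptake genes had 8 of 24 lower (4 without NTG 1, 13 under equal totals and 14 under quantile normalization) and 3 higher (1 without siMCRS1 2). LSS, lanosterol synthase, had 5274 and 4397 in NTG and 2772, 2051 and 2319 in siMCRS1 (log2 difference -1.03). Of 15 cholesterol efflux and LXR target genes, 6 were lower and 1 was higher (0 without NTG 1), and NR1H3, LXR-alpha itself, had 626 and 499 in NTG and 250.4, 166 and 135 in siMCRS1 (log2 difference -1.65).

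In the urea cycle and amino acid list, 18 of 32 members were lower and 3 higher, with a median of -0.80. BHMT, which remethylates homocysteine with betaine, had 874 and 684 in NTG and 142, 129 and 90.2 in siMCRS1 (log2 difference -2.70). Of the urea cycle enzymes, ASL had 1615 and 1317 in NTG and 615, 383 and 407 in siMCRS1 (log2 difference -1.67) and ASS1 had 819.5 and 804 in NTG and 542, 455 and 374 in siMCRS1 (log2 difference -0.84), both lower in every siMCRS1 library. ARG2, the mitochondrial arginase found mainly outside the liver cycle, was higher with 935 and 1205 in NTG and 3942, 5104 and 4347 in siMCRS1 (log2 difference 2.06).

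Many fetal liver and growth factor genes were higher on the authors' scale. In the IGF and oncofetal list, 16 of 25 were higher (10 without NTG 1) and 1 was lower, with 9 higher and 1 lower under equal totals. SOX4, a factor of progenitor cells, had 3150 and 4264 in NTG and 11478, 11961 and 13593 in siMCRS1 (log2 difference 1.75). DLK1, a marker of hepatoblasts, had 3443 and 2002 in NTG and 6804, 5683 and 4293 in siMCRS1 (log2 difference 1.07). IGF2, a fetal growth factor, had 19635 and 11363 in NTG and 35674, 27380 and 24380 in siMCRS1 (log2 difference 0.95), a call lost without NTG 3 (log2 0.55) and under quantile normalization (0.60). GPC3, a glypican of liver cancer, overlapped between the groups (45401 and 38970 in NTG and 44894, 48595 and 38715 in siMCRS1). Wnt target genes parted, with 7 of 20 higher and 4 lower on the authors' scale and 4 higher and 6 lower under equal totals. Of 3 feedback inhibitors of the pathway, AXIN2 had 4107 and 4860 in NTG and 7817, 11922 and 9547 in siMCRS1 (log2 difference 1.11), and ZNRF3 had 2781 and 2640 in NTG and 4507, 4875 and 4549 in siMCRS1 (log2 difference 0.78). The secreted one, NOTUM, was lower with 10494 and 8985 in NTG and 3737, 3655 and 3617 in siMCRS1 (log2 difference -1.40). Of 17 clock genes, 6 were higher and 2 lower (1 without NTG 1, NTG 3, siMCRS1 1 or siMCRS1 3), with 4 higher and 4 lower under equal totals, and BHLHE40, a repressor of the clock, had 1363 and 1298 in NTG and 2991, 3751 and 2988 in siMCRS1 (log2 difference 1.28). Of 8 HOX genes that passed the filter, 1 was higher (0 without NTG 1, NTG 3, siMCRS1 1 or siMCRS1 2) and 2 were lower (1 without NTG 1, NTG 3 or siMCRS1 3).

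DNA replication and S phase genes were mostly lower, with 34 of 52 members lower, 0 higher and a median of -0.53. The number lower was 19 without NTG 1, and 40 under equal totals. E2F1, the activator of S phase genes, had 2306 and 1621 in NTG and 946, 669 and 703 in siMCRS1, a log2 difference of -1.34 (standard error 0.23, adjusted p = 0.00074). E2F2 had 329 and 298 in NTG and 127, 84.8 and 97.4 in siMCRS1 (log2 difference -1.62). UHRF1, which carries DNA methylation through replication, had 6202 and 4957 in NTG and 2675, 1600 and 2094 in siMCRS1 (log2 difference -1.42). CDC45, part of the replicative helicase, had 911 and 738 in NTG and 392, 263 and 309 in siMCRS1 (log2 difference -1.37). Each of these 4 fell by more than 1 log2 unit, and large falls without overlap were picked for naming. The shift was smaller in MCM2, a helicase subunit whose promoter is shown above, with 6098 and 4526 in NTG and 4506, 3427 and 3481 in siMCRS1 (log2 difference -0.48), and in PCNA, the sliding clamp, with 19405 and 16573 in NTG and 13520, 12274 and 11651 in siMCRS1 (log2 difference -0.53). The MCM2 call was lost without NTG 1 (log2 -0.26), siMCRS1 2 (-0.41) or siMCRS1 3 (-0.42) and, at the same value, without the filter or with an untrended variance, and that of PCNA without NTG 1 (-0.41). RRM2, the S phase subunit of ribonucleotide reductase, overlapped between the groups (log2 difference 0.23, adjusted p = 0.15). The list took 0.575% and 0.491% of reads in NTG and 0.389%, 0.317% and 0.327% in siMCRS1.

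Mitosis and spindle genes moved in both directions on the authors' scale. Of 57 members, 21 were lower and 4 higher, with a median of -0.25, and the number lower was 7 without NTG 1 and 13 without siMCRS1 3. Under equal totals 1 was higher and 37 were lower. ESPL1, the separase that cuts cohesin, had 985 and 911 in NTG and 415, 282 and 315 in siMCRS1 (log2 difference -1.51). TOP2A, the topoisomerase whose promoter is shown above, had 28602 and 26713 in NTG and 21347, 21328 and 20214 in siMCRS1 (log2 difference -0.40), a call lost without NTG 1 (log2 -0.35). CCNB1, cyclin B, had 10054 and 7957 in NTG and 6813, 6175 and 5396 in siMCRS1 (log2 difference -0.55), lost without NTG 1 (-0.38), siMCRS1 2 (-0.56) or siMCRS1 3 (-0.46) and with an untrended variance (-0.55). Its kinase CDK1 had 4674 and 4125 in NTG and 4742, 4373 and 3973 in siMCRS1 (adjusted p = 0.95), with overlap, and the proliferation marker MKI67 had a log2 difference of -0.18 (adjusted p = 0.23). PRC1, a cross-linker of spindle microtubules, was higher with 2048 and 2265 in NTG and 4642, 4223 and 4015 in siMCRS1 (log2 difference 0.99), as was PLK1, a mitotic kinase, with 5962 and 4481 in NTG and 8269, 7903 and 6324 in siMCRS1 (log2 difference 0.53), the latter lost without NTG 3 (log2 0.32) and under equal totals (0.29) or quantile normalization (0.30).

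Among cyclin D, CDK inhibitor and RB genes, 6 of 14 were lower (2 without NTG 1) and 2 higher. The CDK inhibitors themselves parted. CDKN1B, p27, had 2770 and 2545 in NTG and 4021, 4012 and 3786 in siMCRS1 (log2 difference 0.57) and CDKN2B, p15, had 956 and 1256 in NTG and 1565, 2523 and 2389 in siMCRS1 (log2 difference 0.95). CDKN2C, p18, had 690.3 and 548 in NTG and 327, 261 and 232 in siMCRS1 (log2 difference -1.18). RB1, the pocket protein that CDKs inactivate, had 4025 and 4144 in NTG and 2678, 3031 and 3101 in siMCRS1 (log2 difference -0.48). CDK4 had 4767 and 3967 in NTG and 3272, 2701 and 2492 in siMCRS1 (log2 difference -0.63), a call lost without NTG 1 (log2 -0.50).

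Homologous recombination genes were lower in 16 of 26 members and higher in 1, with a median of -0.43. BRCA1, which steers double strand break repair, had 3278 and 3225 in NTG and 1217, 907 and 1163 in siMCRS1, a log2 difference of -1.58 (standard error 0.13, adjusted p = 1.6e-05). FANCD2, of the crosslink repair pathway, had 2984 and 2414 in NTG and 950.4, 738 and 796 in siMCRS1, a log2 difference of -1.70 (standard error 0.15, adjusted p = 2.5e-05). NBN, a sensor of breaks, was the member that rose, with 2554 and 2472 in NTG and 4786, 5090 and 4724 in siMCRS1 (log2 difference 0.95). The list took 0.16% and 0.161% of reads in NTG and 0.108%, 0.0938% and 0.109% in siMCRS1, without overlap.

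Targets of p53, the transcription factor that answers DNA damage, did not move as a group: 9 of 30 were higher and 12 lower (7 without NTG 1), with a median of -0.10. CDKN1A, the p21 inhibitor, and MDM2, the p53 ligase, which are the best known targets, overlapped between the groups, with log2 differences of 0.16 and -0.07 (adjusted p = 0.52 and 0.73). GDF15, a stress cytokine with other inducers too, had 6967 and 7176 in NTG and 20820, 34057 and 23196 in siMCRS1 (log2 difference 1.85). FDXR, a mitochondrial reductase, had 2656 and 2456 in NTG and 804, 549.6 and 656 in siMCRS1 (log2 difference -1.95). DDB2, which recognizes damaged DNA, had 1379 and 1239 in NTG and 506, 481 and 530 in siMCRS1 (log2 difference -1.37). Of 16 BCL2 family genes, 8 were higher and 3 lower (median 0.62), and the rises held both survival and death genes. Of the genes that protect mitochondria, MCL1 had 17909 and 17013 in NTG and 34052, 36707 and 32085 in siMCRS1 (log2 difference 0.97). BCL2L1, its relative, had 8547 and 8600 in NTG and 16820, 18920 and 16250 in siMCRS1 (log2 difference 1.01). Of the killers, BCL2L11, BIM, had 1086 and 969 in NTG and 1847, 1817 and 1889 in siMCRS1 (log2 difference 0.85) and PMAIP1, NOXA, had 349.5 and 423 in NTG and 1007, 1009 and 1358 in siMCRS1 (log2 difference 1.53), whereas the pore-former BAX was lower with 2962 and 2660 in NTG and 2069, 1920 and 1649 in siMCRS1 (log2 difference -0.59).

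Stress lists leaned upward, in part by scale. ATF4 and integrated stress response genes had 13 of 30 higher (7 without NTG 1 or siMCRS1 2 and 8 without NTG 3) and 4 lower (2 without NTG 1, NTG 3 or siMCRS1 2), with 6 higher and 7 lower under equal totals. Quantile normalization gave 10 higher and 5 lower. TRIB3, a pseudokinase induced by ATF4, had 4188 and 3869 in NTG and 7135, 9131 and 7622 in siMCRS1 (log2 difference 0.98). SLC38A2, a neutral amino acid transporter, had 42567 and 50702 in NTG and 86908, 109406 and 105276 in siMCRS1 (log2 difference 1.11). ASNS, asparagine synthetase, overlapped (log2 difference 0.11, adjusted p = 0.67), and SHMT2, a mitochondrial one-carbon enzyme, was lower with 6126 and 5404 in NTG and 2753, 2207 and 2223 in siMCRS1 (log2 difference -1.27). Unfolded protein response genes had 9 of 23 higher and 0 lower on the authors' scale and 2 higher and 4 lower under equal totals. Quantile normalization gave 3 higher and 3 lower. DNAJB9, a chaperone of the endoplasmic reticulum, had 1948 and 1904 in NTG and 3242, 3727 and 2919 in siMCRS1 (log2 difference 0.77). Cytosolic chaperones had 10 of 30 higher (6 without NTG 3) and 0 lower (1 without NTG 3), with 5 higher and 2 lower under equal totals. With quantile normalization 5 were higher and 4 lower. CCT8, a chaperonin subunit, had 9537 and 8203 in NTG and 16774, 16331 and 14219 in siMCRS1 (log2 difference 0.83).

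Targets of NRF2, the factor that answers oxidants, had 12 of 26 higher (8 under equal totals) and 1 lower (4 without siMCRS1 1). Under quantile normalization 7 were higher and 4 lower. GCLC, the catalytic subunit of the enzyme that starts glutathione synthesis, had 5619 and 5907 in NTG and 13239, 18713 and 14586 in siMCRS1 (log2 difference 1.41). GCLM, its modifier subunit, had 3896 and 4137 in NTG and 6831, 9358 and 7703 in siMCRS1 (log2 difference 0.98). Other known targets did not pass the test, with overlapping groups, NQO1 at 28195 and 27379 in NTG and 28723, 33314 and 23497 in siMCRS1 and HMOX1 at 1270 and 1578 in NTG and 1284, 1469 and 1450 in siMCRS1 (adjusted p = 0.91 and 0.96). Of 9 metallothioneins, 3 were higher and 0 lower (1 without siMCRS1 1). Of 14 iron genes, 5 were higher and 2 lower (1 without NTG 1), with a median of 0.09 that turned to -0.14 under equal totals. FTL, the ferritin light chain, had 118073 and 107540 in NTG and 204962, 235297 and 178308 in siMCRS1 (log2 difference 0.86). TFRC, the transferrin receptor, had 23198 and 23480 in NTG and 34763, 41102 and 35818 in siMCRS1 (log2 difference 0.67). SLC40A1, the iron exporter ferroportin, had 2733 and 3445 in NTG and 5384, 11451 and 8295 in siMCRS1 (log2 difference 1.38). HFE, which adjusts hepcidin to iron, was lower with 306 and 296 in NTG and 62.3, 70.5 and 71.6 in siMCRS1 (log2 difference -2.13). SLC11A2, a transporter that imports iron, was the other member that fell, with 3093 and 2993 in NTG and 2425, 2338 and 2383 in siMCRS1 (log2 difference -0.35), a call lost without NTG 1 (log2 -0.33). Genes of uptake were thus found on both sides.

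Ribosomal protein genes moved by small steps whose calls depended on the scale and on single libraries. Of 79 cytosolic members, 40 were higher and 0 lower, with a median of 0.33, but the number higher was 9 without NTG 1, 25 without siMCRS1 1 and 24 without siMCRS1 2, and 5 were higher and 1 lower under equal totals. RPL35 had 5495 and 6985 in NTG and 9413, 9959 and 9879 in siMCRS1 (log2 difference 0.65) and RPS18 had 15991 and 18817 in NTG and 26601, 27747 and 26277 in siMCRS1 (log2 difference 0.63), the latter not called under quantile normalization (log2 0.26). In contrast, RPS6 overlapped (29499 and 28130 in NTG and 33044, 32357 and 28601 in siMCRS1). Mitochondrial ribosomal protein genes leaned down, with 25 of 77 lower (15 without NTG 1) and 10 higher (6 without NTG 1 or NTG 3), and 4 higher and 47 lower under equal totals. MRPL49 had 1999 and 1615 in NTG and 897, 829 and 769 in siMCRS1 (log2 difference -1.11). Nuclear genes of oxidative phosphorylation had 19 of 77 lower and 11 higher (the latter 3 without NTG 1), with 0 higher and 29 lower under equal totals and a median that turned from 0.01 to -0.23. On the authors' scale their share lower, 24.7%, was close to the 24.6% of all genes. NDUFB5, of complex I, had 2478 and 2329 in NTG and 1402, 1230 and 1104 in siMCRS1 (log2 difference -0.95). Of 13 mRNAs of the mitochondrial genome, 1 was higher (0 without any 1 library) and 0 lower, and 0 were called under equal totals. Nucleolar and ribosome biogenesis genes had 19 of 55 higher (11 without NTG 3) and 5 lower (2 without NTG 1 and 3 without siMCRS1 2 or siMCRS1 3), with 7 higher and 11 lower under equal totals. POLR1A, the largest subunit of RNA polymerase I, had 3026 and 3476 in NTG and 5836, 5926 and 5927 in siMCRS1 (log2 difference 0.86). WDR43, of the small subunit processome, had 5969 and 5900 in NTG and 10844, 12115 and 11025 in siMCRS1 (log2 difference 0.93). NCL, nucleolin, was higher by 0.33 log2 units, a call lost without NTG 1 (log2 0.35) or NTG 3 (0.30) and a value that turned to -0.11 under quantile normalization. It was not called under equal totals (0.09) or without the filter (0.33) either.

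Protein breakdown and growth control lists were mixed, where 23.1% of all genes were higher and 24.6% lower. Lysosome genes, at 31.1% and 28.9%, and mTORC1 regulators, at 33.3% and 25.9%, were not far from these shares. Of 39 proteasome genes, 7 were higher (3 without NTG 3) and 3 lower (0 without NTG 1 or siMCRS1 3 and 1 without NTG 3 or siMCRS1 2), with 2 higher and 10 lower under equal totals, and PSMD9, an assembly chaperone, had 745 and 764 in NTG and 1672, 1783 and 1583 in siMCRS1 (log2 difference 1.15). Of 45 lysosome genes, 14 were higher (6 without NTG 1 and 9 without siMCRS1 2) and 13 lower, with 5 higher and 15 lower under equal totals. LAMP2, a membrane protein of lysosomes, had 2987 and 3470 in NTG and 6420, 7954 and 7375 in siMCRS1 (log2 difference 1.17). MCOLN1, the lysosomal calcium channel, had 283 and 286 in NTG and 105, 102 and 120.3 in siMCRS1 (log2 difference -1.38). mTORC1 regulators had 9 of 27 higher and 7 lower, with 7 higher and 10 lower under equal totals. TSC2, a brake on mTORC1, had 1042 and 997 in NTG and 514, 389 and 481 in siMCRS1 (log2 difference -1.15). NPRL2, a brake that senses amino acids, had 456 and 387 in NTG and 185, 131 and 160.4 in siMCRS1 (log2 difference -1.41). LAMTOR1, which anchors the kinase pathway to lysosomes, had 920.1 and 854 in NTG and 2005, 1970 and 1742 in siMCRS1 (log2 difference 1.10). Of 35 splicing factor genes, 11 were higher and 2 lower (1 without NTG 1, siMCRS1 1, siMCRS1 2 or siMCRS1 3), with 5 higher and 4 lower under equal totals and a median that turned from 0.18 to -0.06. HNRNPUL1 had 4218 and 3796 in NTG and 9835, 10117 and 9171 in siMCRS1 (log2 difference 1.28). Glutamine, one-carbon and serine genes had 11 of 28 lower (7 without NTG 1) and 3 higher, with 2 higher and 19 lower under equal totals. ALDH1L1, a folate enzyme of liver, had 721 and 717 in NTG and 230.4, 186 and 153 in siMCRS1 (log2 difference -1.93) and CAD, which starts pyrimidine synthesis, had 2090 and 2112 in NTG and 1243, 997 and 1057 in siMCRS1 (log2 difference -0.94). PPAT, which starts purine synthesis, had 3386 and 3181 in NTG and 5404, 5165 and 5009 in siMCRS1 (log2 difference 0.66).

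Chromatin regulators other than the complexes of MCRS1 moved in both directions, as did all genes, with 23.1% higher and 24.6% lower. For SWI/SNF the shares, 26.1% and 17.4%, were not far from these. Of 31 Polycomb subunits, 10 were higher and 4 lower (the latter 2 without NTG 1), with 5 higher and 13 lower under equal totals. EZH2, the methyltransferase that EPZ-6438 inhibits, did not pass the test (log2 difference -0.24, adjusted p = 0.11), while PHF1, an accessory subunit, had 276 and 355 in NTG and 918, 1065 and 986 in siMCRS1 (log2 difference 1.66) and PCGF3 had 1475 and 1808 in NTG and 3437, 3870 and 4203 in siMCRS1 (log2 difference 1.23). Of 23 SWI/SNF subunits, 6 were higher and 4 lower (the latter 2 without NTG 1), with 3 higher and 7 lower under equal totals. ARID1B had 1405 and 1554 in NTG and 3186, 3592 and 3685 in siMCRS1 (log2 difference 1.24) and the ATPase SMARCA2 had 1382 and 1335 in NTG and 762, 696 and 755 in siMCRS1 (log2 difference -0.88). Of 24 acetyltransferases and deacetylases, 8 were higher (4 without NTG 1 or siMCRS1 2 and 3 without NTG 3) and 6 lower, with 3 higher and 10 lower under equal totals. KAT5, the acetyltransferase TIP60, had 389.7 and 365 in NTG and 829, 779.8 and 764 in siMCRS1 (log2 difference 1.07), opposite to KAT8 above, and HDAC6, a deacetylase of tubulin, had 1607 and 1423 in NTG and 618, 453 and 547 in siMCRS1 (log2 difference -1.50).

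Immune lists had more members lower than higher, where 24.6% of all genes were lower and 23.1% higher. In the NF-kB list the share lower on the authors' scale, 28.6%, was near that of all genes. Interferon-stimulated genes had 11 of 27 lower and 3 higher (1 without NTG 1, NTG 3 or siMCRS1 2), with IFI35 at 581 and 534 in NTG and 161, 112 and 116 in siMCRS1 (log2 difference -2.11) and IFIT3, an antiviral effector, at 144 and 165 in NTG and 39.0, 33.0 and 47.3 in siMCRS1 (log2 difference -1.94). In the complex that transmits the interferon signal, STAT2 had 1095 and 1045 in NTG and 364, 258 and 417 in siMCRS1 (log2 difference -1.65) but IRF9 had 299.7 and 337 in NTG and 693, 628 and 586 in siMCRS1 (log2 difference 1.00), so its subunits parted. In the NF-kB list, 4 of 14 were lower (7 under equal totals) and 2 higher (1 without NTG 1). BIRC3, an inhibitor of cell death and an NF-kB target, had 507 and 469.5 in NTG and 62.3, 41.9 and 50.1 in siMCRS1, a log2 difference of -3.24 (standard error 0.23, adjusted p = 1.1e-05). NFKBIA, the inhibitor that NF-kB induces, had 3715 and 3296 in NTG and 2181, 2148 and 1789 in siMCRS1 (log2 difference -0.78). Antigen presentation by MHC class I had 9 of 17 lower and 1 higher (2 without siMCRS1 3), and PSMB9, an immunoproteasome subunit, had 147 and 137 in NTG and 42.3, 24.2 and 30.1 in siMCRS1 (log2 difference -2.15). Over all 55 lists, 35 counts were of 1 to 3 members, and 23 of these moved by over 1.5 times when some library was left out.

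**Figure D2:**
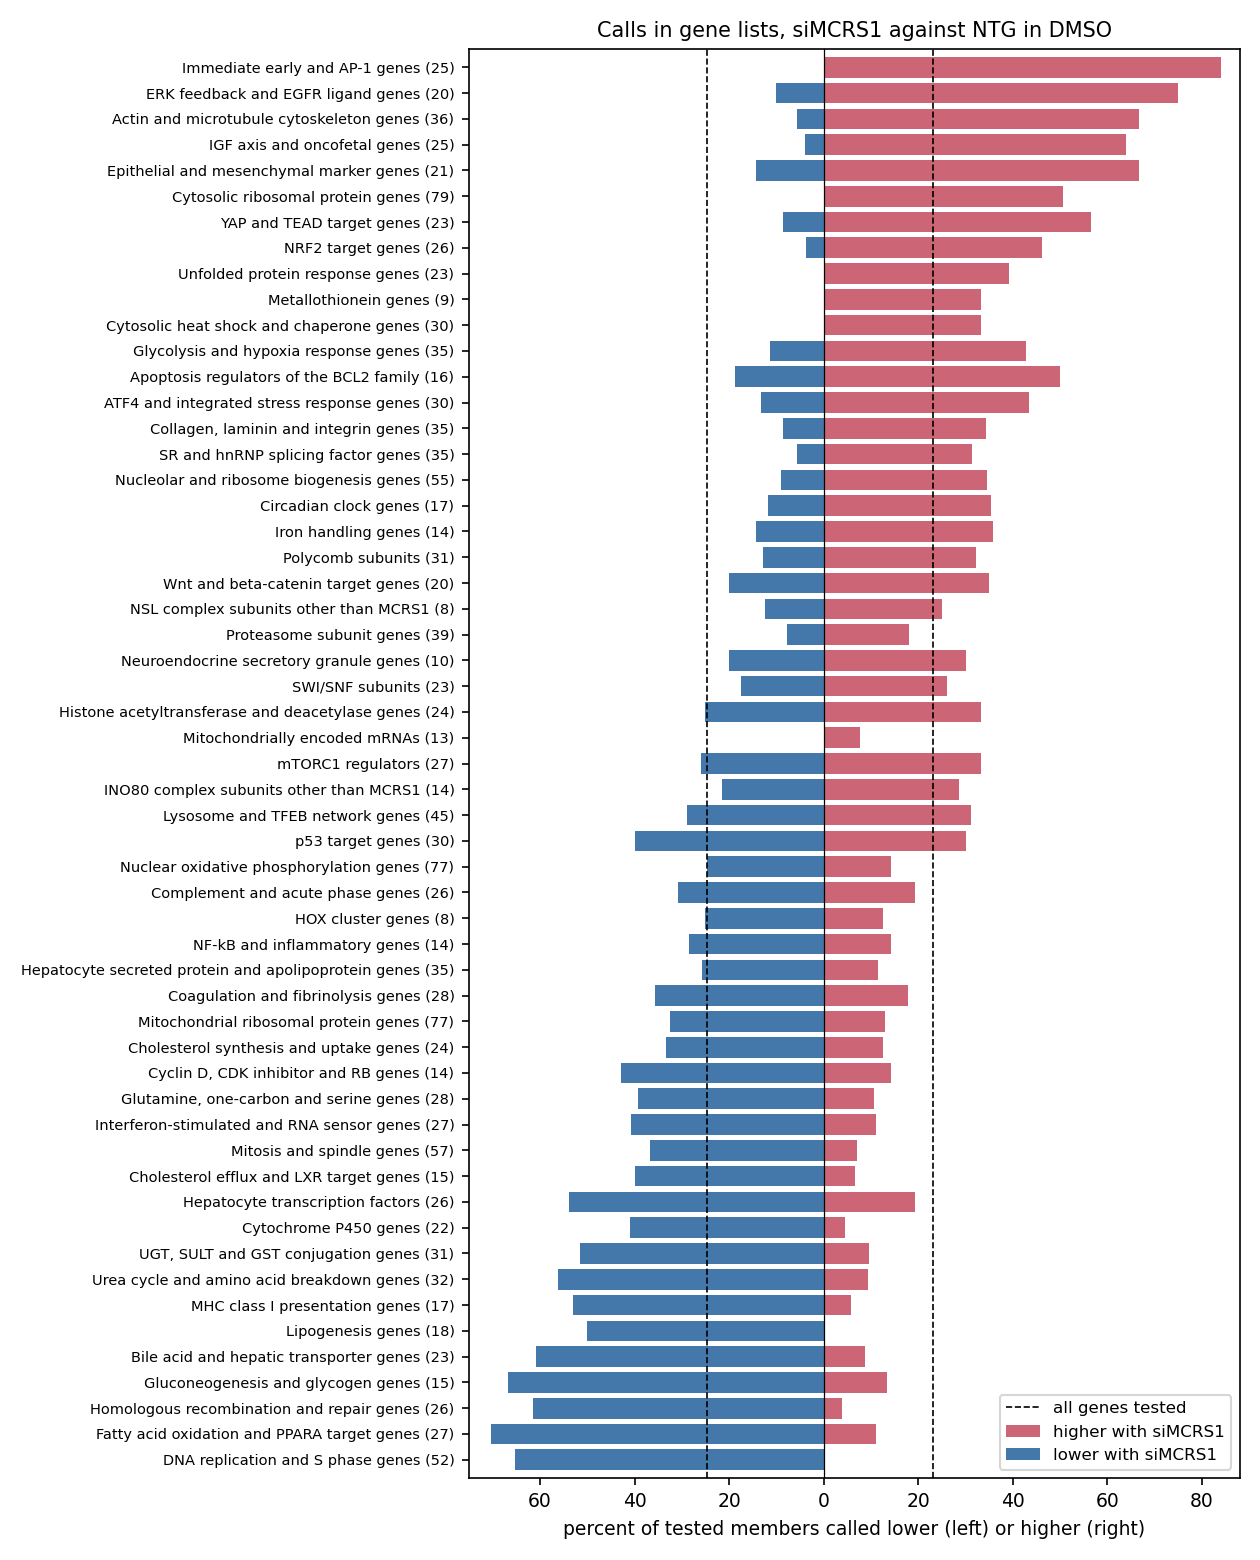
Share of the tested members of 55 gene lists called higher (to the right) or lower (to the left) with siMCRS1 in DMSO, in percent, with the number tested in brackets and dashed lines at the shares of all tested genes, 23.1% and 24.6%; lists are ordered by the difference of both shares. Immediate early genes stand at the top with 84% higher and S phase genes at the bottom with 65.4% lower.

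**Figure D3:**
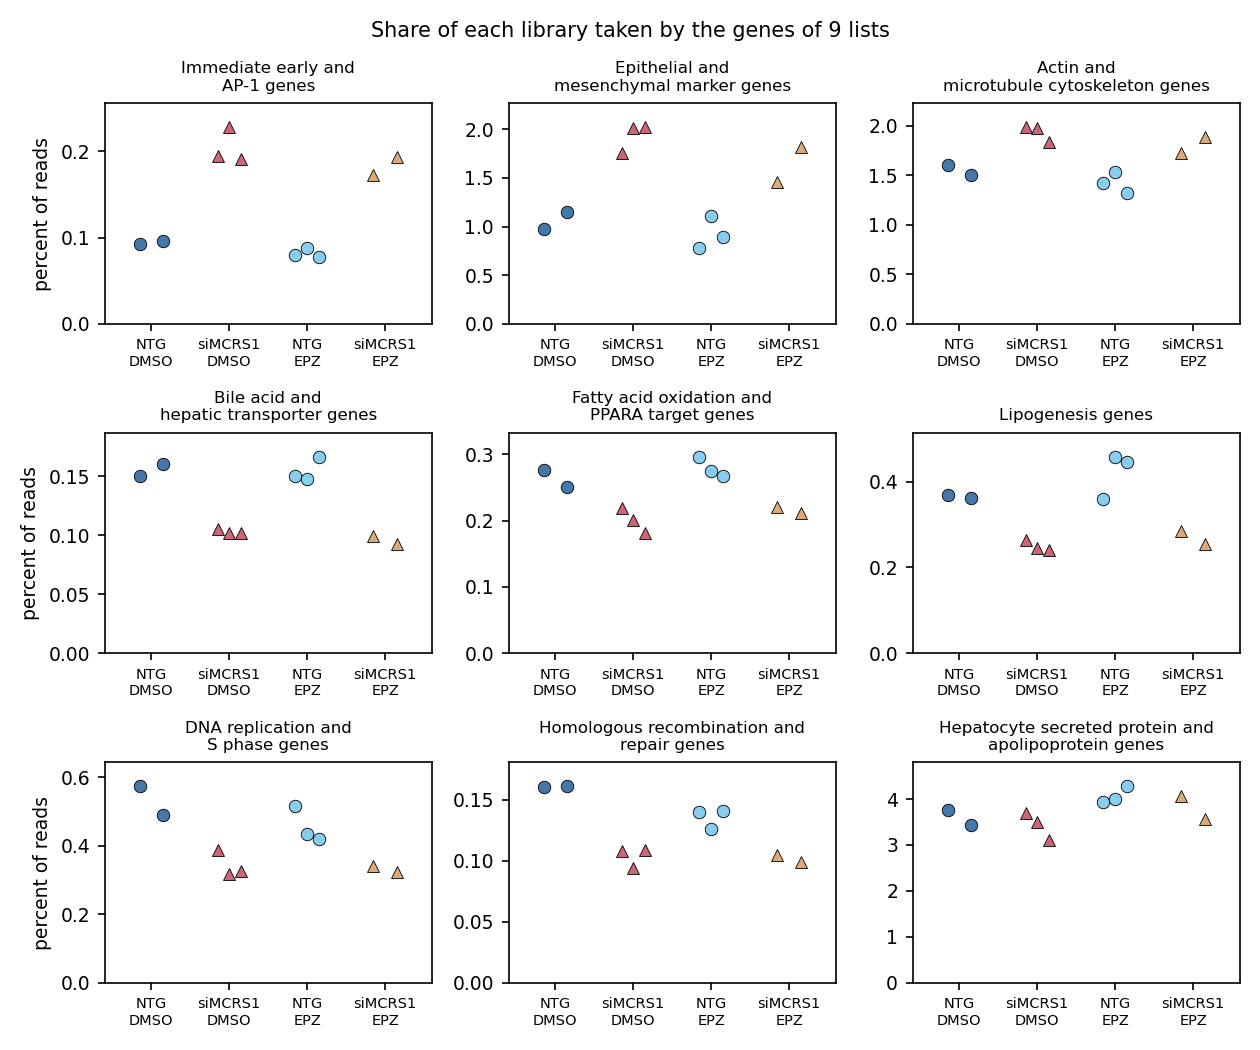
Percent of the reads of each library taken by the members of 9 lists, for NTG (circles) and siMCRS1 (triangles) in DMSO and in EPZ-6438, 1 point per library. In DMSO the groups do not overlap in 8 panels, and they do in that of hepatocyte secreted proteins.

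The direction of the difference went with the level and the length of transcripts. With the tested genes cut into 4 equal bins by their mean counts, 7.52% were called higher in the lowest bin and 17.6%, 27.7% and 39.6% in the bins above it. The share called lower was 20.9%, 38.3%, 27.2% and 12.1% in the same order. The mean was taken over all 10 libraries, siMCRS1 included, so a gene that rises is also placed higher. Under equal totals the median log2 difference in these bins was -0.40, -0.49, -0.23 and -0.004. Counts are not per length, and genes with more counts are also measured more precisely. With 96.1% of the 13006 tested protein-coding genes matched to an annotated transcript, the longest transcript had a median of 3576 bases over all, 4201 bases over genes called higher and 2990 over genes called lower. From the shortest to the longest of 4 equal bins by length, 17.5%, 21.2%, 28.7% and 31.9% were higher, and 33.1%, 30.5%, 23.7% and 16.5% lower. Under equal totals the medians of the length bins were -0.41, -0.32, -0.16 and -0.07. Length and level share genes and were not separated here, and RNA integrity was not tested. Reads of mitochondrial genes were alike, at 6.28% and 6.93% in NTG and 6.33% to 6.86% in siMCRS1.

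**Figure D4:**
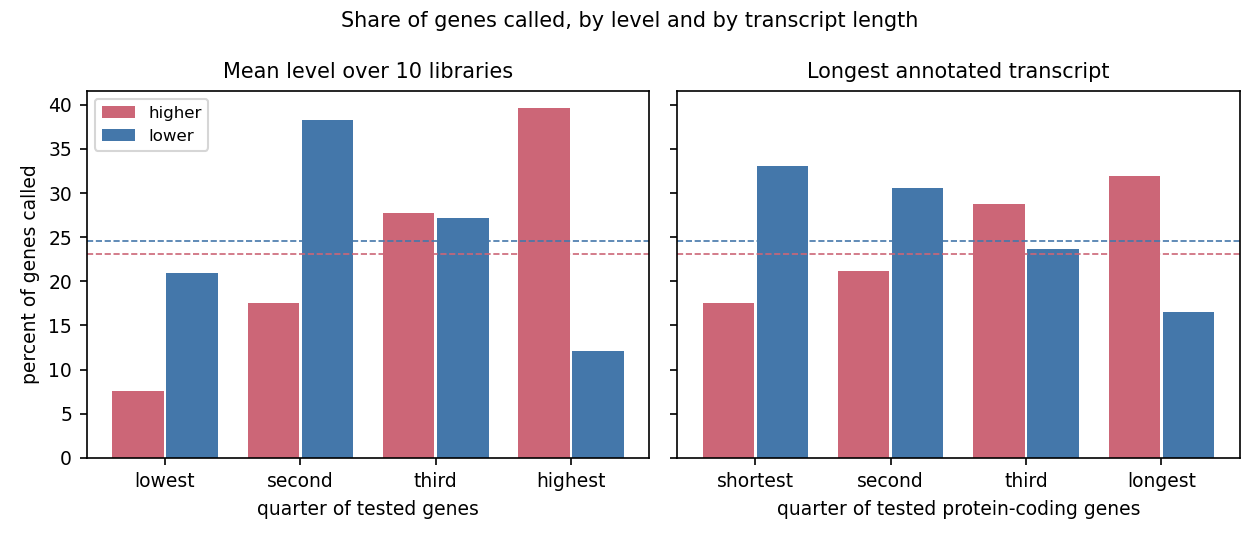
Percent of genes called higher (red) or lower (blue) with siMCRS1 in DMSO, in 4 equal bins of the mean level over the 10 libraries (left) and of the longest annotated transcript (right, protein-coding genes), with dashed lines at 23.1% and 24.6%. The share called higher climbs from 7.52% to 39.6% with the level and from 17.5% to 31.9% with the length.

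Most promoter motifs were about as common in genes called higher as in genes called lower, but some were rarer among large changes. Of the protein-coding genes tested, 10667 (82.0%) had a RefSeq promoter, and both strands of its 250 bases before and 50 after the start were searched for 10 motifs, some of which can overlap. The CRE was in 3.54% of promoters of genes called higher, 2.98% of those called lower and 3.21% of all, and the AP-1 site (TGACTCA or TGAGTCA) in 3.43%, 2.69% and 3.11%. Among rises of at least 2 log2 units the AP-1 site was in 7 of 94 promoters (7.45%), and among falls of that size in 13 of 232 (5.60%). The GC box (GGGCGG) was in 74.3% of promoters of genes called higher, 65.5% of those called lower and 68.8% of all, and the CCAAT box in 33.1%, 39.8% and 36.7%. The CHR was in 8.96%, 10.5% and 10.0%, the E-box in 10.5%, 9.88% and 9.99%, and the ETS core (CCGGAAG) in 18.6%, 19.1% and 19.1%. Among rises and falls of at least 2 log2 units, the ETS core was in 4.3% and 5.60%, the GC box in 55.3% and 47.0%. The CRE was there in 5.32% (5 promoters) and 1.72% (4 promoters). The YY1 core (AAGATGGCG), the NRF1 site (GCGCATGCG) and the HNF1 palindrome were in 3.88%, 3.69% and 0.075% of all. Lists differed more than calls: the CHR was in 68% and the CCAAT box in 74% of 50 promoters of the mitosis list, both of which the TOP2A promoter holds. The CRE was in 4 of 16 promoters (25%) of the ERK list. In the immediate early list the CRE and the AP-1 site were each in 1 of 19 promoters (5.26%). These examples were picked among all lists and motifs. A match says only that the letters are present.

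The same knockdown in the 5 EPZ-6438 libraries, which share no library with the DMSO comparison but share its variance estimate, repeated most calls. There 26.8% of tested genes were higher and 26.9% lower. Of the genes higher in DMSO, 2977 were higher there too, which is 90.0% of the DMSO genes and 77.5% of the EPZ-6438 genes. Of those lower in DMSO, 3152 were lower there too, 89.5% and 81.9%, and 1 gene was called in opposite directions. A test of the difference between both responses (interaction in limma) called 0 genes, with 336 (2.35%) at an unadjusted p under 0.05, where edgeR called 0 and DESeq2 5. That share is smaller than such a threshold gives when no gene differs, so 0 calls do not show equal responses. The interaction was not fitted with a replicate block. Among genes named above, EGR1 differed by 3.08 log2 units in DMSO and 3.24 in EPZ-6438, SULT2A1 by -2.46 and -2.35, BRCA1 by -1.58 and -1.38, and KAT8 by -1.28 and -1.41. MMP2 had 3.16 and 1.78, without a called interaction. By list, the numbers higher and lower in EPZ-6438 were 23 and 0 for immediate early genes, 14 and 3 for epithelial and mesenchymal markers, 2 and 14 for bile acid genes and 3 and 16 for fatty acid oxidation genes. For the cell cycle lists, S phase genes had 4 higher and 23 lower in EPZ-6438 against 0 and 34 in DMSO, and mitosis genes 16 higher and 12 lower in EPZ-6438 against 4 and 21. Nucleolar genes had 33 higher and 4 lower in EPZ-6438 against 19 and 5. These differences between counts were not tested. Leaving out siMCRS1 1 or siMCRS1 3 gave 3 and 1 interaction calls in limma.

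**Figure D5:**
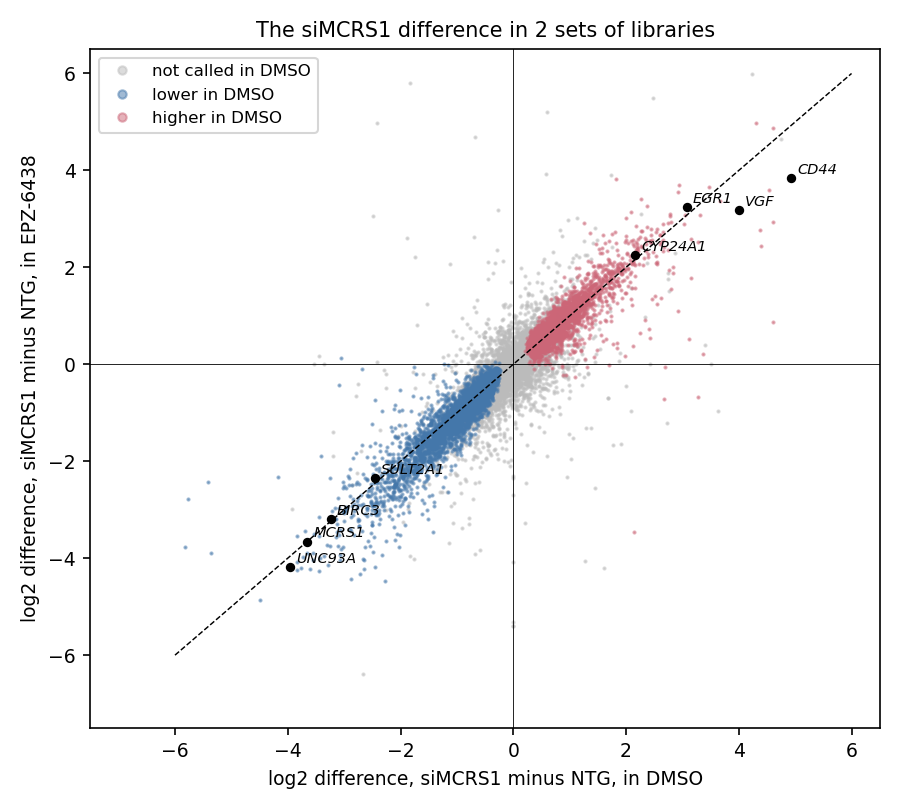
Log2 difference of siMCRS1 minus NTG in DMSO (horizontal) and in EPZ-6438 (vertical) for each tested gene, with genes called in DMSO in color, 8 named genes in black and the line of equal values dashed. Of the genes called in DMSO, 99.8% have the same sign in both sets, against 88.4% of all tested genes.

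Markers of cells other than hepatocytes were checked in the 5 libraries. Of 10 hepatocyte markers, all were present, 0 were higher and 1, HNF4A, was lower, with summed normalized counts of 981400 to 1128341 in NTG and 1045795 to 1268253 in siMCRS1. Fibroblast markers summed to 1308 to 1638 in NTG and 2100 to 2248 in siMCRS1. Endothelial markers summed to 328 to 386 in NTG and 506 to 577 in siMCRS1, with KDR and TEK at 0 in all 5. In each of these lists 1 marker was called higher and 1 lower. In means of NTG and siMCRS1, COL1A1 rose from 247 to 623 and RGS5 fell from 61.15 to 29.6. The endothelial ROBO4 fell from 25.3 to 9.25, and PECAM1, at 191 and 186, was not called. TIE1, an endothelial receptor, had 109 and 124 in NTG and 378, 299 and 284 in siMCRS1, a call lost without any 1 of the 5 libraries (log2 1.32 to 1.53) and not made in edgeR (1.45), DESeq2 (1.46), without the filter or with an untrended variance (both 1.44) or under equal totals (1.21). Of 12 leukocyte markers, 4 were at 0 in all 5 libraries. Their sum was nearly all LYZ, lysozyme, with 68408 and 51580 in NTG and 59165, 48870 and 37061 in siMCRS1, and CD3D, a T cell receptor chain, rested on 11 reads over both NTG libraries and 76 over the siMCRS1 libraries, a ratio of 5.77 (3.05 to 12.1). The bile duct keratin KRT19 had 15299 and 14945 in NTG and 30959, 31859 and 26212 in siMCRS1, a log2 difference of 0.97, with CFTR at 0. EPCAM, of the same list, was called lower (means 5582 in NTG and 4231 in siMCRS1), and SOX9 was not called (4929 and 4836). The part of other cells in the results was not tested.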

How the data were processed

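Poly(A) RNA of HepG2 cells was sequenced from a stranded kit, and the submitters' processing notes name kallisto, DESeq2 and GRCh38, with versions and annotation not given in the sources used here. The deposited table holds a signal per gene: counts that the authors divided by 1 size factor per library. In every library 100% of values were whole multiples of 1 read (tolerance 0.0001), so reads were recovered, which may be rounded estimates. A few reads per gene limit precision, and a count of 0 allows up to 3 reads per library.

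Values were tested as log2(value + 1), which understates changes of low genes, with limma 3.58.1 (R 4.3.3, trended variance, Benjamini-Hochberg) over 10 libraries in 4 groups and 14312 of 34825 genes with a mean of at least 10, since NTG in DMSO had 2 libraries. Contrasts were siMCRS1 minus NTG in DMSO, the same in EPZ-6438, and their difference. The self-test on simulated data ran before the real fit. Alternatives were edgeR 4.0.16 and DESeq2 1.42.0 on recovered reads, other pseudocounts, filters and scalings, and left-out libraries. Replicates differed beyond the sampling noise of reads (chi-square per degree of freedom 21.3 to 71.3), which does not tell whether they were separate cultures. Members and lists were chosen with earlier results of these data known. The genes named are MCRS1 and its complexes and genes among the 12 largest rises and 12 largest falls. In each list they are key members and up to 4 of the largest rises and 4 of the largest falls. Rises and falls were picked among called genes with a mean of at least 50 in DMSO and no overlap between the groups. Some list members are counted but not reported here by name. Pseudogenes and readthrough transcripts among the largest changes are not described, because reads could be split with their parents. Column numbers and label letters name replicates differently, and the siINO80 libraries were not used here.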

Additional observations from a re-analysis of the deposited data

How the results depend on the processing

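The number of genes called in DMSO, 6830, ranged from 6404 to 7011 over the other pseudocounts, filters, scalings, variance models and count tests, with 6807 in edgeR and 7011 in DESeq2 (6683 and 6676 of them the same genes, 0 with another sign). Leaving out 1 library gave 4604 to 6629 calls, 2307 to 3114 genes higher and 2297 to 3515 lower, where the lowest 3 values came without NTG 1. Under equal totals 1892 genes were higher, and by its construction this scaling lowers every siMCRS1 value. The interaction called 0 genes in limma with all 10 libraries, 3 in limma without siMCRS1 1, 1 in limma without siMCRS1 3, and 5 in DESeq2; the cause was not tested. Of 58 list counts of 5 or more, 23 moved by over 1.5 times under equal totals, 14 under quantile normalization, 23 without NTG 1 and at most 7 under each other alternative. MCRS1 stayed between -3.89 and -3.43 on the log2 scale. Of 167 other named genes that were called, 150 kept the call under every alternative. Large rises and falls without overlap were picked for naming, so this share does not describe all called genes. Under quantile normalization the log2 differences of ACTB (-0.40), NQO1 (-0.40), RPS6 (-0.29) and NCL (-0.11) turned negative, and only NCL had been called.

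Taking the column number as a replicate block, in the 8 libraries with a number, called 8007 genes against 6642 in the same libraries without the block, 6572 of them shared. Deviations from the group means in samples of the same number had a mean r of 0.21 over 7 pairs (lowest -0.017). With 2 NTG libraries these deviations mirror each other, so the pairs are not independent. Samples of other numbers (mean -0.10 over 14 pairs) are partly fixed by the centring and give no comparison. The labels use letters and do not say what a number marks, and the groups compared share only 2 numbers, so the samples were not treated as paired. Depth limits genes near 3 reads per library, and with 2 NTG libraries a small change rests on either of them.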
